A study of Drosophila melanogaster with 3 samples.

Results

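The genes examined were 10 germ line and piRNA pathway genes of Drosophila melanogaster, namely stwl, nos, osk, vas, tud, piwi, aub, AGO3, spn-E and rhi. They were chosen by name, with earlier results of these data known. All 10 were found among the 18164 genes annotated on 6 chromosome arms. Occupancy at them was read from chromatin immunoprecipitation with sequencing (ChIP-seq), which recovers the DNA bound by a tagged protein. The tagged protein was CG8944 with green fluorescent protein (GFP) joined to its C terminus, made by a transgenic fly line and recovered with an antibody to GFP from sonicated whole embryos of mixed sex, 0 to 24 h old. There was 1 group of 3 biological replicates, all of that line, so no condition could be compared with another. The authors called peaks against a control alignment, and no control library was analysed here.

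Each gene was scored against 5 peak lists on the dm6 build. The lists hold no read counts, so the depth behind a value is unknown. Relaxed lists, which hold peaks together with background by design, came from replicate 1 (30000 entries), replicate 2 (30000 entries), replicate 3 (27393 entries) and the pooled replicates (23886 entries). The reproducible list, which passed the authors' irreproducible discovery rate step, held 3511 peaks. These were the 3511 pooled entries with the highest signal, so a site's pooled rank (1 = highest signal) is also its rank in the reproducible list. The 3511 entries of highest signal in each replicate, called its strongest entries, were used to see how a count varied between replicates. Signal is the authors' value on a scale that is not stated, and is compared only within a list.

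The Drosophila germ line arises from germ plasm, a cytoplasm that Oskar assembles at the posterior of the egg and that holds Vasa, Tudor and nanos mRNA. piRNAs are small RNAs bound by the PIWI proteins Piwi, Aubergine and Argonaute 3, and they silence transposons in that lineage. Their precursors are transcribed from clusters, of which Rhino marks those transcribed from both strands. In germ cells piRNAs are amplified in the perinuclear nuage, where Vasa and Spindle-E work. Piwi carries mature piRNAs to the nucleus. Germ cells are a small part of a whole embryo. Fewer cells with the protein at a gene and less of it there in each cell cannot be told apart in such a sample. Peak lists carry no expression values, so the labelled embryo tissue could not be checked against marker genes.

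Reproducible peaks lay at the promoters of 3 of the 10 genes. These were stwl, a gene of germ line stem cell upkeep, nos, the gene for the posterior determinant Nanos, and tud, the gene for the scaffold protein Tudor. Promoters were taken as the span from 500 bp upstream to 500 bp downstream of each transcription start site (TSS), and 14.1% of all genes had a reproducible summit there (17.1% of protein-coding genes). The promoters of piwi, aub, vas and spn-E held only weaker entries, which made 7 of 10 genes with a pooled entry against 39.9% of all genes. The full replicate lists reached 6 of 10 promoters in replicate 1, 5 in replicate 2 and 7 in replicate 3, against 45.1%, 40.5% and 41.8% of all genes in the same lists. All 10 genes are protein-coding, and a protein-coding share was not computed for the pooled and replicate lists. AGO3, osk and rhi had no promoter entry in any of the lists. With 10 genes chosen by name and with earlier results of these data known, these counts describe the genes. No test was made of them.

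The promoter count varied between replicates by 1 gene either way. The strongest entries of replicate 1 reached the promoters of 2 genes, stwl and nos, where 14.0% of all genes were reached. In replicate 2 they reached 3 genes, stwl, nos and tud, against 13.4% of all genes. In replicate 3 they reached 4 genes, with piwi added, against 14.3%. stwl and nos were therefore present in each replicate, tud in 2 and piwi in 1. Among genes with any pooled promoter entry, 3 of 7 of these genes had a reproducible one, beside 35.4% of all such genes. The best pooled promoter entry of the 7 genes had a median signal of 102 and a median rank of 3746, beside a signal of 75.2 and a rank of 5779.5 over 7256 genes.

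Within the gene and 2 kb on each side, 3 of 10 genes held a reproducible summit, a share near the 27.2% of all genes (30.5% of protein-coding genes). All 10 held a pooled entry in that window, as did 74.5% of all genes. In the full replicate lists all 10 genes also held an entry, against 78.7% of all genes in replicate 1, 81.5% in replicate 2 and 78.8% in replicate 3. The strongest entries gave the same genes as at promoters, beside 27.2%, 26.7% and 27.3% of all genes in replicates 1, 2 and 3. The windows of these genes were long, with a median of 10106.5 bp beside 5656 bp over all genes. They held a median of 3.12 pooled summits per 10 kb, beside 2.15 over all genes.

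**Figure D1:**
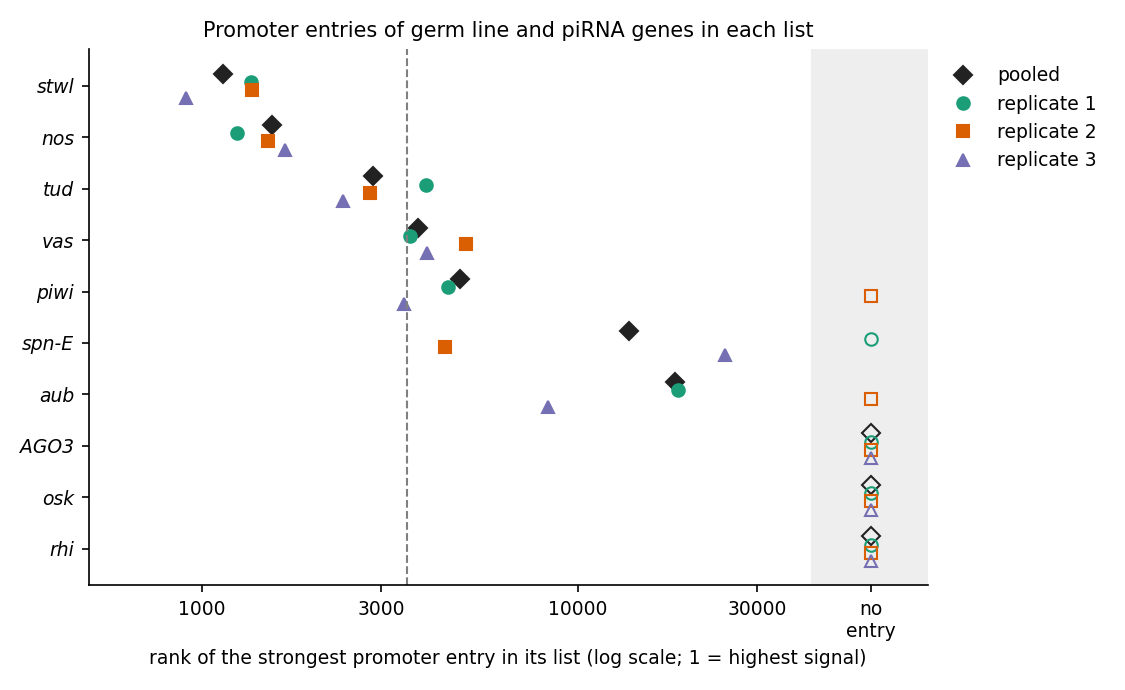
Rank of the strongest promoter entry of each gene (vertical axis) in the pooled list and the 3 replicate lists, on a log axis where 1 is the highest signal; open symbols on the grey band mark lists with no promoter entry and the dashed line is rank 3511. All 4 symbols of stwl and nos lie left of the line, those of tud straddle it, those of vas lie right of it, and AGO3, osk and rhi have no promoter entry.

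Across replicates, stwl and nos could not be ordered, tud came after them, and vas and piwi could not be ordered either. The rank of the stwl promoter peak averaged 1203 ± 256 and that of the nos peak 1467 ± 212 (SD, n = 3 replicates). nos ranked ahead of stwl in replicate 1 and behind it in replicates 2 and 3. The tud peak averaged 3031 ± 808 and ranked behind both in every replicate. The vas entry averaged 4192 ± 755. It ranked behind tud in replicates 2 and 3 and ahead of it in replicate 1, so these neighbours overlapped. Among the 7256 genes ordered by their best pooled promoter entry, stwl was at place 982, nos at 1286, tud at 2171, vas at 2692, piwi at 3229, spn-E at 5626 and aub at 6442.

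Stonewall, the product of stwl, is a nuclear DNA-binding protein needed to keep germ line stem cells in the ovary. Its gene (FBgn0003459, 3L: 14402930 to 14409939, minus strand) held 2 of the 4 reproducible peaks found at the 10 genes. The stronger peak spanned 14409362 to 14409761, with its summit at 14409562 in an intron, 377 bp downstream of the nearest stwl TSS. Its pooled signal was 228 at rank 1134. The replicate signals were 71.3 in replicate 1 (rank 1347), 71.9 in replicate 2 (rank 1355) and 81.8 in replicate 3 (rank 908). All 3 replicates placed it among their strongest entries, and their summits scattered by 15 bp (SD, n = 3). The other peak had its summit at 14410482, 543 bp upstream of stwl and so outside the promoter window. It lay in an exon of the long non-coding RNA gene lncRNA:CR45233 and 144 bp upstream of the divergent gene CG3919. Its pooled signal was 187 at rank 1594, and the replicate signals were 48.1 (rank 2607), 77.2 (rank 1219) and 59.7 (rank 1542) in replicates 1, 2 and 3. The summit fell on the same base in the pooled list and in all 3 replicates. A weak entry between them, at 14409815 in the stwl 5′ UTR, had a pooled signal of 60.2 at rank 8665 and no counterpart in replicate 1. The 91 bp around both reproducible summits are shown because stwl was the only one of the 10 genes with 2 reproducible peaks. They are read on the plus strand of dm6, opposite to stwl, with GAGAG or its reverse complement CTCTC in capitals.
stwl intron, chr3L:14409517-14409607: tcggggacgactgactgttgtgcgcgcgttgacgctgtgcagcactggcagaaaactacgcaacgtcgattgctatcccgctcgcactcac
stwl upstream, chr3L:14410437-14410527: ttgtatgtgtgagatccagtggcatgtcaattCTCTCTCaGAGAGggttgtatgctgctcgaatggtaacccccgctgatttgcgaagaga

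The intronic stwl window held none of the 6 sequence elements searched within 50 bp of each summit on both strands. The upstream window held 3 copies of GAGAG counted on both strands, of which 2 overlap on the minus strand and the third follows on the plus strand after a single base. Searched first was TATCGATA, the DNA replication-related element (DRE), together with CGATA, the core bound by BEAF-32 that every DRE contains. Then came GAGAG, bound by GAGA factor, and GGTCACAC, the centre of core promoter motif 1. The last were CAGGTAG, bound by the early activator Zelda, and TATAAA, the TATA box. Of reproducible peaks, 2.42% held TATCGATA, 18.7% CGATA, 10.1% GAGAG, 1.37% GGTCACAC, 0.399% CAGGTAG and 16.1% TATAAA. Of pooled entries outside the reproducible list, 0.775% held TATCGATA, 11.7% CGATA, 12.7% GAGAG, 0.707% GGTCACAC, 0.658% CAGGTAG and 8.27% TATAAA. The GAGA element was thus no more common in reproducible peaks than in the weaker entries. The GC content of the intronic window was 56.4% and that of the upstream one 46.5%, beside medians of 35.6% over reproducible peaks and 47.5% over the 20375 weaker entries.

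The reproducible promoter peaks whose replicate ranks were closest to the stwl peak lay at CG30373, at HSPC300, which encodes a subunit of the actin-regulating SCAR complex, and at RhoGAP16F, which encodes a GTPase-activating protein. Their absolute differences from stwl in log2 rank, summed over 3 replicates, were 0.23, 0.28 and 0.33. CG30373 had ranks of 1338, 1190 and 885 in replicates 1, 2 and 3. The search left out the start sites of the 10 genes, so none of them could appear here.

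Nanos represses translation of hunchback mRNA in the posterior embryo and is needed in germ cells. The nos gene (annotated as nanos, FBgn0002962, 3R: 19157238 to 19160202, plus strand) lies inside the span of CG11779 on the opposite strand. Its reproducible peak had a summit at 19156848, 390 bp upstream of the nos TSS. That base is 36 bp upstream of a TSS of CG11779 and in a 5′ UTR exon of another CG11779 transcript, so the nearest start is that of CG11779. The pooled signal was 191 at rank 1537. The replicate signals were 74.8 (rank 1241), 67.4 (rank 1500) and 57.2 (rank 1661) in replicates 1, 2 and 3, and all were among the strongest entries. The summits of replicates 2 and 3 lay 56 and 59 bp closer to nos than the pooled summit. Inside nos, a pooled entry 384 bp downstream of the TSS had a signal of 58.8 at rank 9081 and none in replicate 3. The peak window was the most GC-rich of those examined, at 60.4%, and held CGATA 3 bp from the summit.

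Vasa is a DEAD-box RNA helicase of the germ plasm and the nuage and a classic germ cell marker. The vas gene (FBgn0283442, 2L: 15061656 to 15074311, plus strand) had the promoter entry closest to the reproducible list without being in it. Its summit was at 15061546, 110 bp upstream of a TSS that vas shares with solo, a gene of meiotic chromosome cohesion. The pooled signal was 102 at rank 3746, and the reproducible list ended at rank 3511 with a signal of 107. The replicate signals were 39.2 (rank 3578), 31.4 (rank 5035) and 31.4 (rank 3963) in replicates 1, 2 and 3. The entry was thus present in every replicate and among the strongest of none, and its summits scattered by 34.2 bp (SD, n = 3). Inside vas, an intronic pooled entry with a signal of 74.0 at rank 5918 lay 257 bp upstream of a TSS of vig, a gene nested in an intron of vas. Its replicate ranks, 5020, 22778 and 3809, differed widely. The vas promoter window is shown as the strongest site left out of the reproducible list. It held none of the 6 elements, had a GC content of 28.7%, and is read on the plus strand of dm6.
vas promoter, chr2L:15061501-15061591: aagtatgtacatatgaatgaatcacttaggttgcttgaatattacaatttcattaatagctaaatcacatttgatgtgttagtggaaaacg

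**Figure D2:**
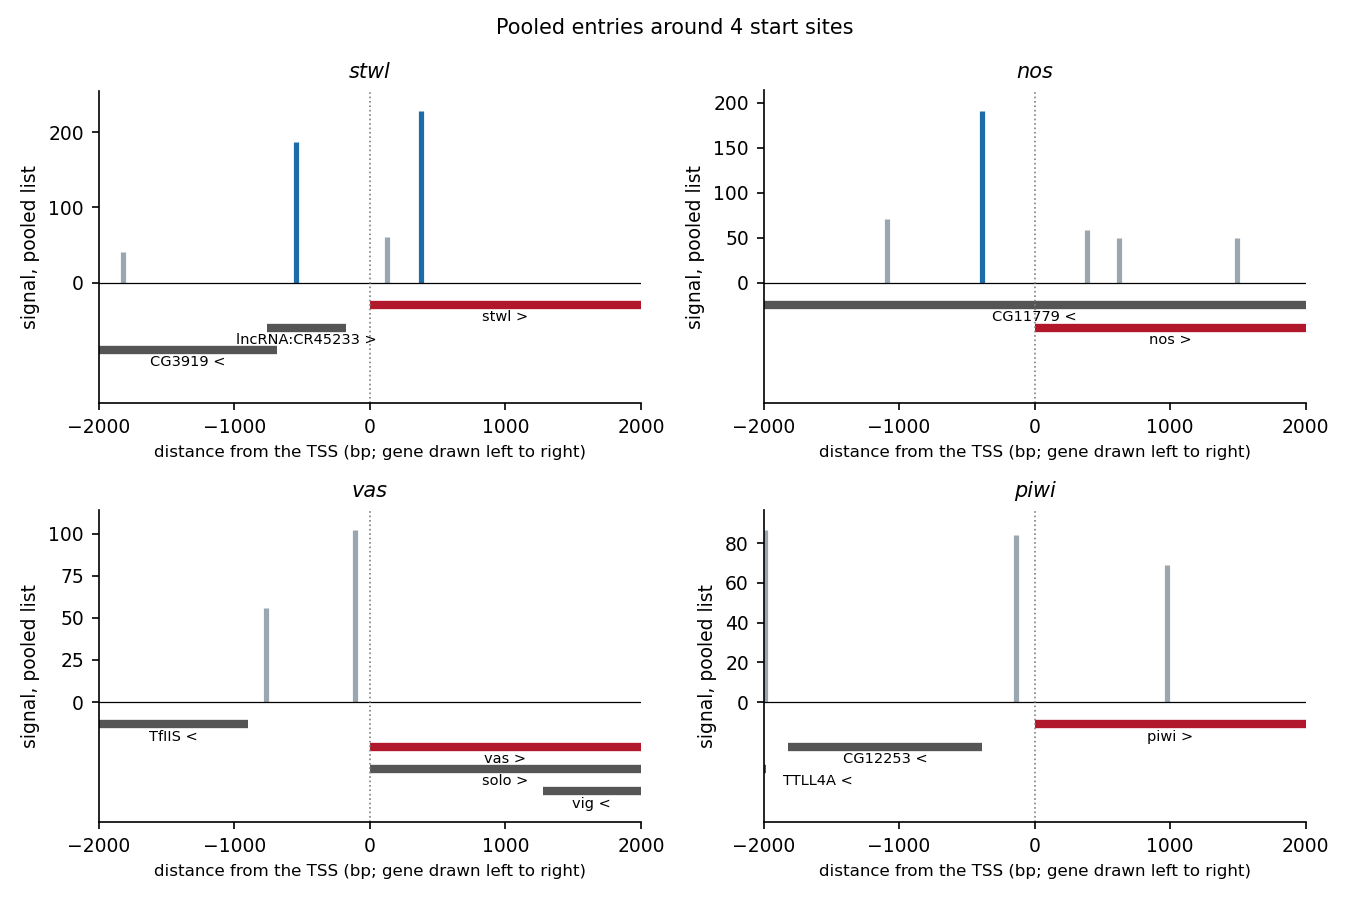
Pooled entries within 2000 bp of the TSS of stwl, nos, vas and piwi, with distance from the TSS in bp on the horizontal axis and pooled signal on the vertical axis; blue bars are reproducible peaks, grey bars weaker entries, and lines below are genes with the named gene in red and arrowheads for direction. stwl has blue bars at 377 and -543 bp, nos has one at -390 bp, and vas and piwi have grey bars only.

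Tudor binds methylated PIWI proteins and is needed to build germ plasm. The tud gene (FBgn0003891, 2R: 21183322 to 21192913, plus strand) had a reproducible peak with its summit at 21183224, 98 bp upstream of the TSS. The pooled signal was 125 at rank 2843, in the lower part of the reproducible list, whose median signal was 175. The replicate signals were 37.0 (rank 3930), 44.4 (rank 2799) and 45.2 (rank 2364) in replicates 1, 2 and 3, so replicate 1 fell outside the strongest entries. Replicate summits lay 2 bp upstream, 27 bp downstream and 57 bp upstream of the start, closer to it than the pooled summit. The tRNA genes tRNA:Gly-GCC-1-13 and tRNA:Trp-CCA-2-6 have starts 368 and 475 bp from the pooled summit, on its other side. tRNA genes have promoters of their own, and which start the signal belongs to was not tested. The window held none of the 6 elements and had a GC content of 33.7%.

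Oskar nucleates germ plasm, and its mRNA is carried to the posterior of the oocyte. The osk gene (FBgn0003015, 3R: 8935126 to 8938395, plus strand) had no promoter entry in the 5 lists. The nearest pooled summit was 1214 bp upstream, with a signal of 50.6 at rank 12710. Its strongest pooled entry was in the 3′ UTR, with a signal of 62.6 at rank 8022, and replicate ranks of 5689, 25582 and 20897. A further entry, with a signal of 55.5 at rank 10284, lay 9 bp from the TSS of the downstream gene ScsbetaA, which encodes a succinyl-CoA synthetase subunit. The nearest reproducible peak was 3120 bp upstream of osk, at the start of pyd, a cell junction gene, at rank 1030.

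**Figure D3:**
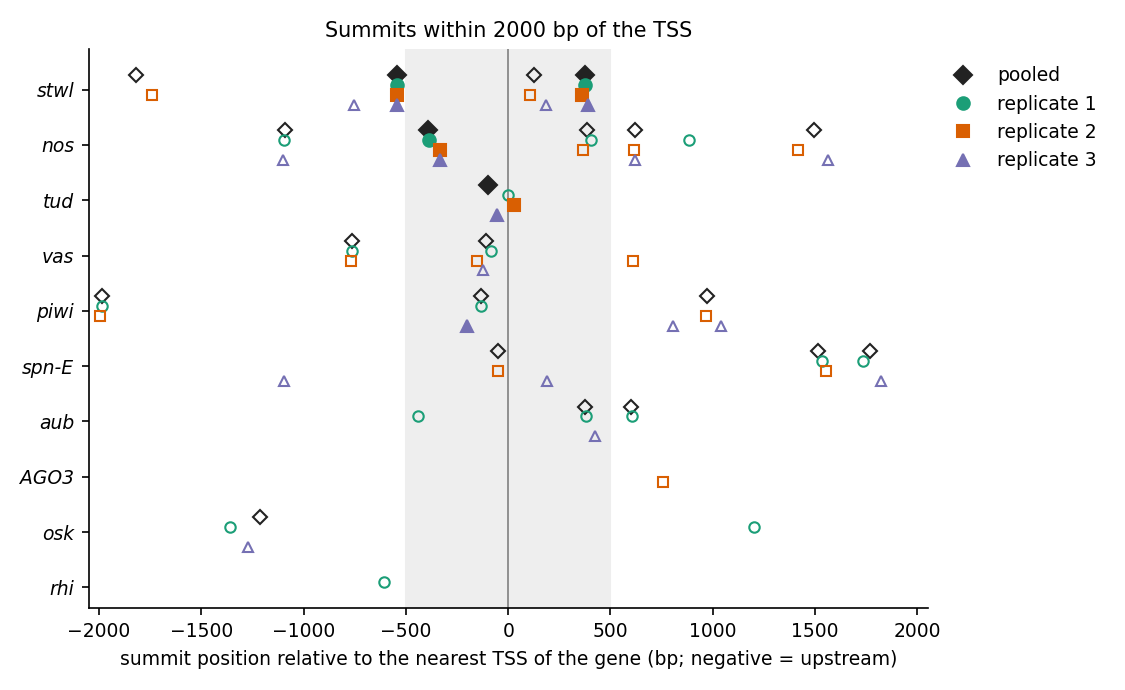
Position of every summit within 2000 bp of the TSS of each gene (vertical axis) in the pooled and replicate lists, in bp from the nearest TSS with negative values upstream; filled symbols are among the 3511 strongest entries of their list and the grey band is the promoter window. The filled symbols gather at 377 and -543 bp at stwl, upstream of nos and around the TSS of tud, with 1 more upstream of piwi, from replicate 3.

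Piwi is the nuclear PIWI protein that directs transcriptional silencing of transposons. The piwi gene (FBgn0004872, 2L: 10982205 to 10987420, minus strand) had a pooled entry 135 bp upstream of its TSS, with a signal of 84.3 at rank 4851. Replicate 1 gave a signal of 34.2 at rank 4501 and replicate 3 a signal of 34.5 at rank 3443, while replicate 2 had no promoter entry and its nearest summit was 968 bp downstream. Presence at this promoter thus differed between replicates, and replicate 3 alone put it among its strongest entries. That entry was the only 1 of 12 strongest replicate entries at these genes that overlapped no reproducible peak. The divergent gene CG12253 starts 251 bp from the pooled summit. A pooled entry 1988 bp upstream of piwi, at the start of TTLL4A, a tubulin ligase-like gene, had a signal of 86.4 at rank 4670 and appeared in all 3 replicates. The nearest reproducible peak was 16770 bp away, at the start of the ribosomal protein gene RpL9.

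Aubergine and Argonaute 3 are the cytoplasmic PIWI proteins that amplify piRNAs by cutting each other's targets. The aub gene (FBgn0000146, 2L: 10997819 to 11001476, minus strand) lies between piwi and the same RpL9 peak (signal 124, rank 2877), which was 2714 bp upstream of it. Its pooled promoter entry was in an intron 377 bp downstream of the nearest TSS, with a signal of 43.4 at rank 18057, near the end of the list. Replicate 1 ranked it 18403, replicate 3 ranked it 8298, and replicate 2 had no entry nearer than 2879 bp downstream. Measured from the outermost aub TSS, the distance was 745 bp, outside the promoter window.

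The AGO3 gene (FBgn0250816, 3L: 23554593 to 23689640, plus strand) is 135048 bp long and had no promoter entry in the 5 lists. Its 4 pooled entries made 0.288 per 10 kb, the lowest density of the 10 genes, beside a median of 2.15 over all genes. The highest had a signal of 52.5 at rank 11627 and lay 123557 bp downstream of the TSS in an intron, with replicate ranks of 20761, 13278 and 21584. Soft-masked repeats made up 37.4% of AGO3, against 21.2% of arm 3L and 6.63% to 16.8% of the other 9 genes. The part of repeats in the low density was not tested. The nearest reproducible peak was 459046 bp away, at RpL10.

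Spindle-E is a helicase with a Tudor domain that acts with the cytoplasmic PIWI proteins in the nuage. The spn-E gene (FBgn0003483, 3R: 15837419 to 15844415, plus strand) had a pooled entry 50 bp upstream of its TSS, with a signal of 48.9 at rank 13674. Replicate 2 had a signal of 33.5 at rank 4427 there, and replicate 1 had no promoter entry. Replicate 3 had an entry of signal 13.3 at rank 24596, whose summit lay 191 bp into the gene. The ND-23 gene, which encodes a mitochondrial complex I subunit, starts head to head 252 bp from the pooled summit. The spn-E window is shown because it was the only one of the 10 summit windows examined that held TATCGATA. In it TATCGATA, CGATA and TATAAA overlap in one run and a further CGATA stands alone, and all are in capitals on the plus strand of dm6. Of all reproducible promoter peaks, 4.20% held TATCGATA, 24.4% CGATA and 15.5% TATAAA. Of pooled entries outside the reproducible list, 0.775%, 11.7% and 8.27% held them, and this entry is among those. A link between these elements and signal was not tested.
spn-E promoter, chr3R:15837324-15837414: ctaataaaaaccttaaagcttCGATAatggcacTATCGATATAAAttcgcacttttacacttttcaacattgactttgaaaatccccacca

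Within spn-E, the strongest pooled entry lay 1514 bp downstream of the TSS, with a signal of 74.9 at rank 5818. It fell in an intron of spn-E that also holds coding sequence of Pbp45. The nearest reproducible peak to spn-E was 44742 bp away, near the starts of Acyp2 and c(3)G, a gene of the synaptonemal complex.

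Rhino belongs to the heterochromatin protein family and marks piRNA clusters transcribed from both strands. The rhi gene (FBgn0004400, 2R: 17628491 to 17633516, minus strand) lies within the span of CG10936 and had no promoter entry in the 5 lists. Its 1 pooled entry had a signal of 51.7 at rank 12073 and lay 6015 bp downstream of the TSS, beyond the end of the gene. It ranked 5281 in replicate 2 and 23057 in replicate 3 and was missing from replicate 1. The entry nearest to the TSS was 606 bp upstream, in replicate 1 alone, at rank 10849.

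The 10 genes held 34 pooled entries in all. Of these, 10 had an overlapping entry in all 3 replicates, 20 in 2 replicates and 4 in 1 replicate. The entries among the strongest of all 3 replicates were the 2 stwl peaks and the nos peak, 3 of the 4 reproducible peaks at these genes. Over all 3511 reproducible peaks, 66.1% were among the strongest of all 3 replicates. The replicate lists held 109 entries at these genes (32, 37 and 40 in replicates 1, 2 and 3), and 33 of them overlapped no pooled entry. The best rank among those 33 was 7877. Of 9 pooled promoter entries, 5 lay upstream of the TSS. Apart from the 66.1%, these counts have no share over all pooled or replicate entries beside them. They describe these genes only.

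The wider germ line and piRNA list held 92 annotated genes, the 10 included, in 7 roles. Reproducible promoter peaks were found at 19 of the 92 genes (20.7%) and at 16 of the 82 others (19.5%). These shares stand beside 14.1% of all genes and 17.1% of protein-coding genes. Pooled entries were found at 54 of the 92 (58.7%) and 47 of the 82 (57.3%), beside 39.9% of all genes. No protein-coding share was computed for pooled entries. The strongest entries of replicates 1, 2 and 3 reached 21, 21 and 18 of the 92 genes (22.8%, 22.8% and 19.6%), beside 14.0%, 13.4% and 14.3% of all genes. Where a summit counted only for the gene with the nearest TSS, 10 of 92 genes remained, against 10.2% of all genes, and stwl and tud were the 2 left of the 10.

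Genes of germ plasm and mRNA localisation made up the largest count, with reproducible promoter peaks at 7 of 17 (41.2%, beside 14.1% of all genes and 17.1% of protein-coding genes). Besides nos these were egl, which links mRNA to dynein (signal 229, rank 1118), orb, a translational regulator of oocyte mRNA (228, rank 1133), and brat, a partner of Nanos in repression (187, rank 1591). The others were smg, a repressor of nos mRNA (163, rank 1950), stau, which localises osk mRNA (148, rank 2236), and Tm1, a tropomyosin gene (110, rank 3403). The strongest entries of replicates 1, 2 and 3 reached 9, 8 and 5 of the 17, beside 14.0%, 13.4% and 14.3% of all genes. The count thus varied between replicates. The orb peak lay 50 bp from a TSS of Cdc16 and 295 bp from orb, and the brat peak 161 bp from a TSS of Polr1D and 172 bp from brat. Where a summit counted only for the gene with the nearest TSS, 4 of the 17 remained, beside 10.2% of all genes.

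Genes of germ line stem cells and oogenesis had reproducible promoter peaks at 3 of 10, beside the same 14.1% and 17.1%. With stwl these were bgcn, a partner of Bam in cystoblast differentiation (signal 351, rank 498), and hts, which encodes an adducin-like protein of the fusome (rank 1361). Meiosis genes had them at 3 of 14 (21.4%). These were corolla (305, rank 671) and c(3)G (138, rank 2492), both of the synaptonemal complex, and nod, a kinesin-like gene of chromosome segregation (174, rank 1766).

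Of 17 nuage and ping-pong genes, tud alone had a reproducible promoter peak (5.88%, beside 14.1% of all genes) and 7 had a pooled promoter entry (41.2%, beside 39.9%). Genes of this role without a pooled promoter entry included krimp, qin, squ, mael and vret. Phased biogenesis genes had reproducible peaks at 2 of 9 (22.2%), papi, which encodes a mitochondrial Tudor protein (signal 514, rank 220), and fs(1)Yb, a gene of the ovarian somatic pathway (131, rank 2680). Cluster transcription and export genes had them at 2 of 15 (13.3%), cuff, a partner of Rhino (179, rank 1699), and Nxf3, an export factor for cluster transcripts (127, rank 2795). Nuclear silencing genes had 1 of 10, ctp, a dynein light chain gene (150, rank 2206), and 8 of the 10 had a pooled promoter entry, beside 39.9% of all genes. The strongest entries of replicates 1, 2 and 3 reached 0, 1 and 1 of the nuage genes and 1, 1 and 2 of the nuclear silencing genes. In the same lists, 14.0%, 13.4% and 14.3% of all genes were reached.

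Genes of the microRNA and siRNA pathways, given for comparison, had reproducible promoter peaks at 3 of 9 (33.3%, beside 14.1% of all genes and 17.1% of protein-coding genes). These were r2d2, a Dicer-2 partner (signal 468, rank 265), AGO1, the main microRNA Argonaute (226, rank 1148), and Ranbp21, an export receptor gene (206, rank 1350). With roles of 9 to 17 genes, differences between roles were not tested.

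**Figure D4:**
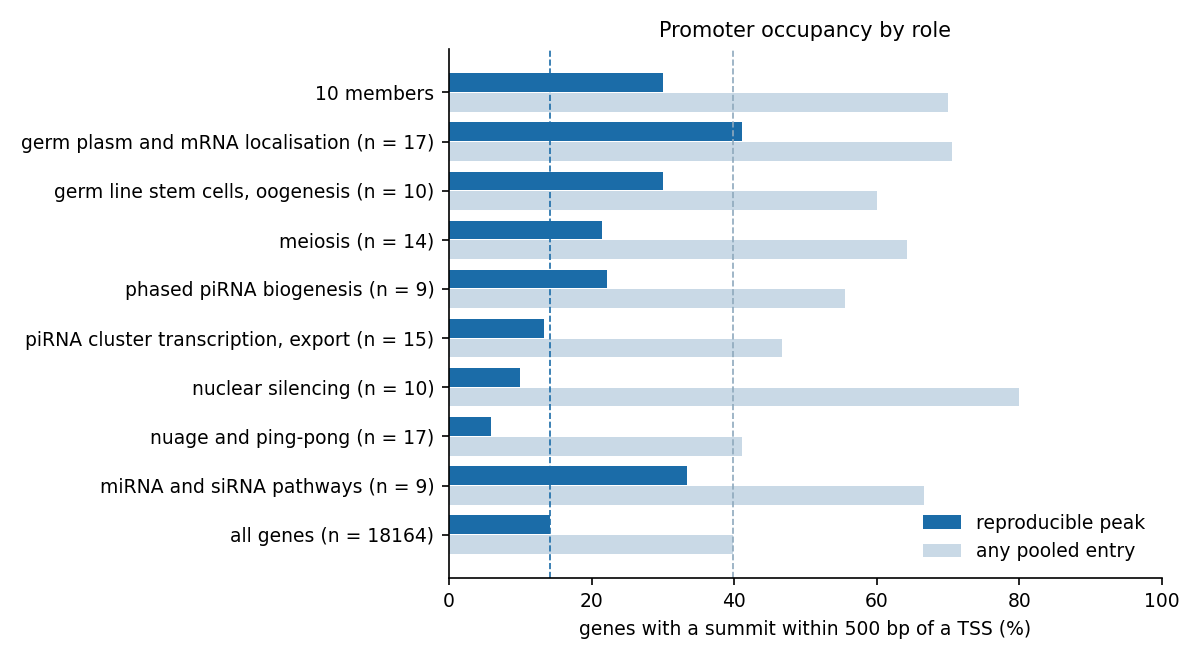
Percent of genes in each role with a summit within 500 bp of a TSS, for reproducible peaks (dark bars) and any pooled entry (light bars); dashed lines carry the shares of all 18164 genes, 14.1% and 39.9%. The dark bar is longest for germ plasm and mRNA localisation (41.2%) and shortest for nuage and ping-pong genes (5.88%).

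Neighbouring genes shared many of these peaks. Of the 19 peaks of the wider list, 10 had the germ line gene as the nearest start. The others stood nearer to another gene, such as CG13185 at cuff, Meics at Nxf3, ND-24 at corolla, CalpA at hts and CG2701 at fs(1)Yb. Whether the tagged protein acts on any of these genes was not tested, since the files hold peak positions only.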

How the data were processed

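ChIP-seq of CG8944-GFP in embryos gave 3 biological replicates of 1 group. The authors' deposited signal per peak has no stated scale. Per the deposited file listing, relaxed lists were called against a control alignment for each replicate and the pool, and the reproducible list came from an irreproducible discovery rate step. The sources used here do not name the aligner, the caller, their versions or the threshold. Lists on dm3 were not used. Read depth is unknown, so no counting interval was computed.

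Summits (deposited start plus offset) were ranked by signal within a list and placed on the Ensembl annotation BDGP6.54, release 115, without transposable elements, in 1-based dm6 coordinates, with Python 3.11.15, numpy 2.4.6, pandas 2.3.3 and matplotlib 3.10.9. Sequence came from the RefSeq dm6 assembly. Replicate entries were matched to the nearest pooled summit they overlapped by at least 1 bp. No 2 replicates shared a signal value (0 in each pair). Other columns of per-sample values numbered 0. Promoter and gene counting steps were tested on simulated data. The element check planted each sequence in a random string and searched that string, so its outcome was fixed in advance.

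The members and lists were chosen with earlier results of these data known. Of 102 names listed, 1 was not found and 2 were brought up to date. Genes named were the 10, wider-list genes with a reproducible promoter peak, genes sharing those windows, the 3 peaks most like stwl and CG8944; genes outside this rule, including those nearest to a weak entry, were chosen after their values were seen. Alternatives were TSS windows of 200 and 1000 bp, flanks of 0 and 5 kb, the reproducible peaks above their median signal, each replicate's strongest entries or each replicate left out, the outermost TSS, summits matched within 100 bp, and sequence windows of 25 and 100 bp. Nearest-TSS counting and a protein-coding background were added after seeing the data.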

Additional observations from a re-analysis of the deposited data

How the results depend on the processing

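Of 47 alternatives, 38 stayed close to the reported value (counts within 1.5 times, other values within the spread between replicates), 9 moved further and 0 reversed. The 38 include summit distances from the outermost TSS at piwi, vas, nos, tud and spn-E, which have 1 annotated TSS each. Those distances could not change, so the 38 overstate how far the results were tested. The 38 also include falls from 3 of the 10 genes to 2, a ratio of exactly 1.5. At promoters these came with peaks above the median signal, the strongest entries of replicate 1, replicate 2 or 3 left out, and nearest-TSS counting. With a TSS window of 200 bp, 1 of the 10 genes (tud) and 10 of the 92 wider-list genes had a reproducible promoter peak, in place of 3 and 19, against 9.97% of all genes. The reproducible peaks above their median signal gave 10 of 92 (7.94% of all genes), and nearest-TSS counting, chosen after seeing the data, also gave 10 of 92. For whole genes the count of 3 became 1 (stwl) with no flank and 5 with a flank of 5 kb, which added aub and osk through the peaks of neighbouring genes. The share of all genes was 27.2% with the 2 kb flank and was not computed for the other flanks. Those counts therefore have no background beside them. A sequence window of 100 bp gave 7 summits with an element in place of 4, by its greater length. The stwl and nos promoter summits, 377 and 390 bp from a TSS, lay outside the window of 200 bp. A smaller window, a shorter list and nearest-TSS counting can only remove genes. Why the counts fell as far as they did was not tested. Leaving out each replicate in turn gave 2 to 3 of the 10 genes and 14 to 15 of the 92 genes at promoters. The share of all genes at promoters fell to between 11.2% and 11.4%. Over whole genes it gave 2 to 3 of the 10, and the share of all genes for that count was not computed. The aub distance became 745 bp from the outermost TSS in place of 377 bp, and the background was 17.1% over protein-coding genes in place of 14.1%. Peaks were not called again, so the outcome for each gene followed from the replicate ranks given above. tud was lost without replicate 2 and without replicate 3, since its rank of 3930 in replicate 1 was outside the strongest entries. stwl and nos were among the strongest entries of all 3 replicates, so they could not be lost. Such peaks had to overlap a strongest entry of both remaining replicates, which left 2683 to 2722 peaks. No paired analysis was possible because there was 1 group. Weak sites are limited by the length of the lists, and no value rests on a known depth.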

Other observations

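The flamenco locus (lncRNA:flam, FBgn0267704, X: 21631891 to 21790731), the main source of piRNAs in the somatic cells of the ovary, was looked at after seeing the data. It had a reproducible promoter peak 183 bp upstream of its TSS, with a pooled signal of 203 at rank 1381. The replicate signals were 72.0 (rank 1331), 62.3 (rank 1695) and 63.9 (rank 1384) in replicates 1, 2 and 3. All 3 replicates thus placed it among their strongest entries, at ranks close to those of nos.

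The CG8944 gene itself (FBgn0030680, X: 15741343 to 15746231) had no reproducible promoter peak. Its best pooled promoter entry had a signal of 79.1 at rank 5346, 47 bp upstream of the TSS. Within the gene and 2 kb on each side it had 2 reproducible peaks, the higher at rank 868, with replicate ranks of 902, 998 and 704 for the best entry there. Of all genes, 27.2% had a reproducible summit in that window. Which gene's start these 2 peaks lie nearest to was not determined.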
